A study of Mus musculus with 14 samples.

Results

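Male (XY) and female (XX) germ cells of the mouse gonad were compared at embryonic day 12.5 (E12.5), over the autosomal genes of an expression microarray. The 4 arrays of the comparison, 2 male and 2 female, were taken by their titles from the 14 arrays of a series on primordial germ cells. The autosomal genes were 17405 of the 18194 genes that the array names. Embryos came from BDF1 females mated to males of mixed B6/CBA background that carried the stella-EGFP transgene, a fluorescent reporter driven from the germ cell gene Dppa3 (also called stella). The label for the mixed background stands on the replicate 2 samples and is missing on the E12.5 replicate 1 samples of both sexes. Genital ridges were digested for 10 min with trypsin, the germ cells were sorted by their EGFP fluorescence, and 5 ng of total RNA, the amount of about 500 cells, went through 12 cycles of PCR before labelling. The E11.5 arrays (2, sex not given) and the E13.5 arrays (2 of each sex), which serve below for comparison, were made from the same cross, transgene and protocol, and no group received a treatment. The E10.5 arrays (2, sex not given, also 12 cycles of PCR) entered the fit as well. They thus help to set the spread behind the p-values. The samples are called biological replicates, but the labels do not say which embryos or litters were pooled, so the p-values measure the spread between these samples.

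Germ cells reach the gonad before its sex is decided, and signals of the surrounding somatic cells then set their course. In a fetal ovary, bone morphogenetic protein (BMP) signals and retinoic acid promote entry into meiosis, through Stra8 and Zglp1. In a fetal testis, retinoic acid is broken down, meiosis is held back, and germ cells pass through a phase of Nodal signalling before they become quiescent prospermatogonia. In the mouse, E12.5 lies at the start of this divergence.

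The array medians were 4.77 and 4.73 in the females and 4.66 and 4.68 in the males on the log2 scale. The 3′ and 5′ Gapdh control probe sets, a measure of RNA integrity, differed by 1.15 and 1.17 in the females and by 0.80 and 0.87 in the males. The sexes did not overlap in either measure. With the Gapdh difference as a covariate 335 autosomal genes were called between the sexes, against 387 without it. Over all genes, the correlation was 0.981 between the females, 0.979 between the males and 0.968 to 0.971 across the sexes. The Y-linked gene Eif2s3y read 1.61 and 2.53 in the females against 10.67 and 10.90 in the males, as labelled. Xist read 5.05 and 4.68 in the females against 5.35 and 4.42 in the males, so its probe set did not separate the sexes. All 4 arrays had the germ cell markers at high signal. Dppa3 lay between 13.44 and 13.61, Dazl between 13.00 and 13.17, and Pou5f1 between 12.76 and 12.89. In such bulk samples, fewer cells of a type and less RNA per cell cannot be told apart.

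At E12.5, 387 of the 17405 autosomal genes differed between the sexes (2.22%; limma, Benjamini-Hochberg adjusted p under 0.05 over all 18194 genes). Without adjustment 2141 (12.3%) had a p under 0.05. The males had 117 of them higher (0.672%) and 270 lower (1.55%). The share higher in males was 30.2%, and it was 40.9% after quantile normalization and 39.1% after centring each array. The genes higher in males were led by Lefty2, Chst15, Lefty1 and Cst9, and those lower in males by Stra8, Phlda2, Id1 and Cubn. The absolute differences of the called genes had a median of 1.65 on the log2 scale, and 352 were at least 2-fold. In 79 of them the lower group was dim, meaning below the median of the whole table (4.72), and in 9 both groups were dim. Over all autosomal genes the median difference was -0.04, and the values of the sexes did not overlap in 49.5% of them, called or not. All 387 called genes were among those without overlap, so a lack of overlap adds nothing to a call. The count fell to between 81 and 129 when 1 of the 4 arrays was left out, a fit in which the lone array is assumed to vary like the other groups. It was 81 without replicate 2 of the females, 85 without their replicate 1, 125 without replicate 1 of the males and 129 without their replicate 2.

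**Figure D1:**
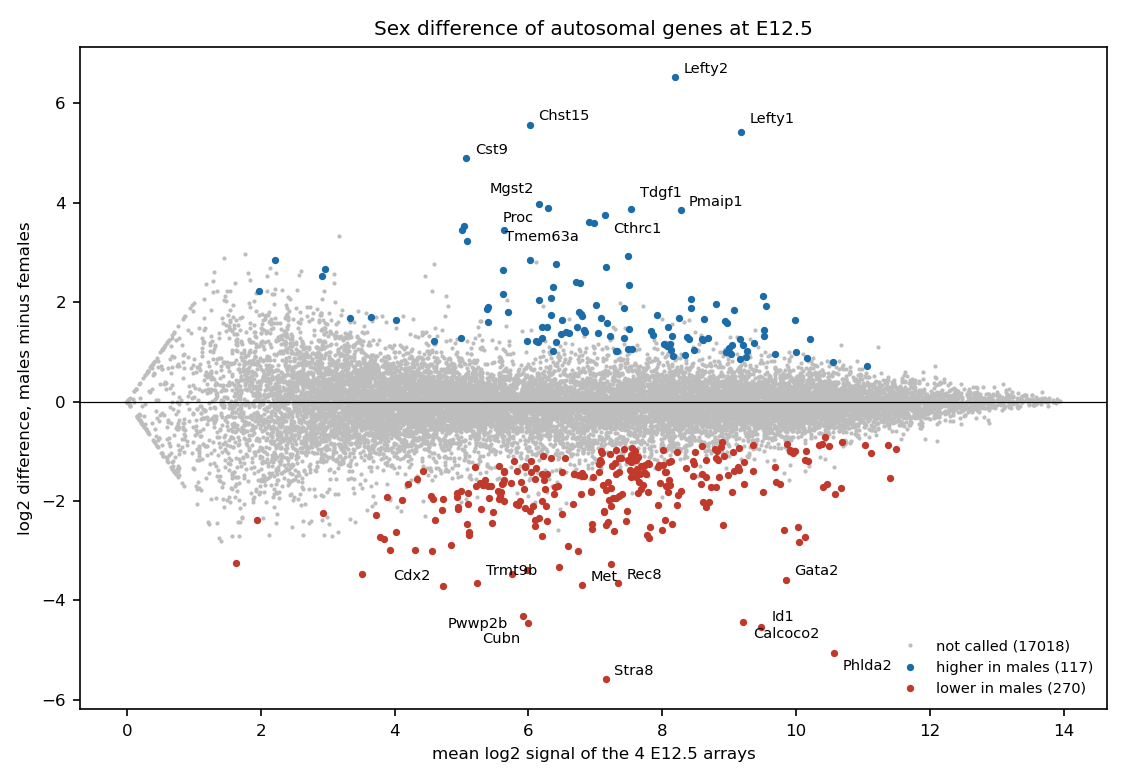
Mean log2 signal of the 4 E12.5 arrays (horizontal) against the log2 difference of males minus females (vertical), 1 point per autosomal gene. Blue points are the 117 genes higher in males and red points the 270 lower in males by adjusted p, grey points were not called. Lefty2 stands highest at 6.53 and Stra8 lowest at -5.58.

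Meiosis genes were lower in males where they differed. Of 35 measured genes of a meiosis list, 6 were lower in males (17.1%, against 2.22% called over all autosomal genes), none was higher and 29 did not pass the test. The list's median difference was -0.41, against -0.04 over all autosomal genes. This list and those below were drawn up with earlier results of these data known. Their shares are therefore descriptions, and no list was tested as a set. The regulators of meiotic entry came first. Stra8, which is needed for the meiotic S phase and prophase, read 9.82 and 10.08 in the females and 3.87 and 4.87 in the males (log2 difference -5.58, SE 0.667, adjusted p = 0.0017). The males lay around the table's median, where the array hardly measures a gene, so the direction is firmer than the size. Zglp1, a GATA-type regulator of the oogenic fate, read 10.12 and 10.18 in the females and 7.56 and 7.77 in the males (log2 difference -2.48, SE 0.286, adjusted p = 0.00137). Its males were well above the median of the table. Meioc, which keeps germ cells in meiotic prophase, read 6.18 and 6.43 in the females and 4.47 and 5.03 in the males (log2 difference -1.55, 95% interval -2.53 to -0.58) and did not pass (adjusted p = 0.115).

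Among structural genes of meiotic chromosomes, Rec8, the meiotic kleisin of cohesin, read 9.08 and 9.26 in the females against 5.65 and 5.39 in the males (log2 difference -3.65, SE 0.215, adjusted p = 2.88e-05). Its difference was 12.6-fold, and the replicates of a sex lay close together. Hormad2, a protein of unsynapsed axes, was lower in males by a small amount (8.10 and 8.08 against 7.02 and 7.17, adjusted p = 0.0454). The other cohesin and synaptonemal genes did not pass the test. Smc1b differed by -0.88 (11.19 and 11.09 in females, 10.29 and 10.22 in males, adjusted p = 0.0906). Sycp3 differed by -0.64 (9.92 and 9.82 against 9.15 and 9.32, 95% interval -1.26 to -0.01, adjusted p = 0.381). Stag3 differed by -0.34 (11.97 and 11.78 against 11.65 and 11.42, adjusted p = 0.45). All 3 were well above the table's median in both sexes. Nearer to it were Sycp1, with means of 7.95 in females and 6.88 in males (adjusted p = 0.163), and Syce3, with 7.72 and 6.90 (adjusted p = 0.691). Of the recombination genes, the strand exchange protein Dmc1 was lower in males (7.14 and 7.43 against 5.60 and 5.59, adjusted p = 0.0314). A second Dmc1 probe set differed by -0.02. The MutS homologue Msh4 was lower in males as well (6.19 and 5.96 against 4.20 and 4.54, adjusted p = 0.0454). Spo11, which cuts DNA to start recombination, differed by -0.28 and did not pass. Stra8, Zglp1 and Rec8 kept their calls without any 1 of the 4 arrays, whereas Dmc1, Msh4 and Hormad2 lost them whichever array was left out.

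Of 23 measured retinoic acid genes, of synthesis, breakdown, binding and response, 2 were lower in males (8.7%, against 2.22% of all autosomal genes) and none was higher. The list's median difference was -0.37. Crabp2, which carries retinoic acid to its nuclear receptors, read 7.99 and 8.48 in the females and 5.52 and 5.81 in the males (log2 difference -2.57, SE 0.352, adjusted p = 0.00371). Zfp503, listed as a retinoic acid target, was lower in males too (8.41 and 8.40 against 5.88 and 6.08, adjusted p = 0.019). Crabp2 lost its call without replicate 2 of the females or replicate 1 of the males, and Zfp503 without any 1 array. The receptor Rara differed by -0.08 (95% interval -0.71 to 0.55), and Rarb, itself a retinoic acid target, by -0.76 (adjusted p = 0.699). Cyp26b1, the degrading enzyme of the fetal testis, differed by 0.13 (95% interval -0.45 to 0.71). The 7 measured synthesis and breakdown enzymes had differences from -1.565 to 2.525, with a median of 0.13, and none was called. At E13.5, 2 of them were called higher in males and none lower.

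The BMP list had its differences among the targets. Of 33 measured genes, 9 were lower in males (27.3%, against 2.22% called over all autosomal genes) and none was higher. The list's median difference was -0.32. Among the 13 targets 8 were lower in males, and their median difference was -1.69. Among 9 ligands and receptors 1 was lower, and of 11 transducers and inhibitors none was called. The Id genes encode inhibitors of basic helix-loop-helix factors and are immediate targets of BMP signalling. Id1 read 11.91 and 11.58 in the females and 7.33 and 7.09 in the males (log2 difference -4.54, SE 0.317, adjusted p = 6.44e-05), a 23.2-fold difference. Id2 had dim males, at 6.03 and 6.08 in the females and 2.63 and 3.47 in the males (log2 difference -3.00, SE 0.465, adjusted p = 0.00763). Id3 was bright in both sexes, at 12.18 and 12.17 against 10.71 and 10.56 (log2 difference -1.54, SE 0.172, adjusted p = 0.00117). Id4 read 9.53 and 9.87 in the females and 7.04 and 8.33 in the males (adjusted p = 0.0196), with males that spread more than the females. Its 2 other probe sets gave differences of -3.21 and 0.21.

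Of the other transcription factors among the BMP targets, Gata2, Msx2, Msx1 and Gata3 were lower in males. Gata2 read 11.57 and 11.70 in the females and 7.99 and 8.12 in the males (log2 difference -3.58, SE 0.206, adjusted p = 2.88e-05). Msx2 read 9.06 and 9.39 against 6.76 and 6.93 (log2 difference -2.38, SE 0.208, adjusted p = 0.000256). Msx1, its homeobox paralogue, read 8.73 and 9.07 against 6.98 and 7.44 (log2 difference -1.69, SE 0.227, adjusted p = 0.00344). All 3 had males still above the table's median. Gata3 read 5.58 and 6.13 against 3.52 and 4.50 (adjusted p = 0.0397). The targets Hand1, Dlx5, Atoh8, Tbx3 and Hey1 were not called. Hey1, a bHLH repressor, differed by 0.50 in the other direction (adjusted p = 0.271) and was called higher in males at E13.5 (log2 difference 1.16, adjusted p = 0.00348). Acvr1, a type I receptor for BMPs, was the called member outside the targets (9.71 and 9.82 against 8.19 and 8.56, log2 difference -1.39, adjusted p = 0.025). The type II receptor Bmpr2 differed by -0.04 (95% interval -0.48 to 0.41), and Smad1, a transducer, by 1.16 in the other direction (6.67 and 6.26 in females, 7.60 and 7.64 in males, adjusted p = 0.106). Id1, Id3, Gata2 and Msx2 kept their calls without any 1 of the 4 arrays. Id2, Id4 and Gata3 lost theirs without either female array or without replicate 1 of the males, and Msx1 without replicate 2 of the females.

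Because BMP targets and entry regulators were lower in males together, the promoters of 4 such genes are shown, and that of Chst15, a gene high in males. They were picked because they hold a match. Each is the window from 250 bases before to 50 after a RefSeq start site of the build GRCm38.p6, read 5′ to 3′ on the gene's strand. Capitals mark AGGTCA, the core motif of retinoic acid receptors, in Stra8. They mark GGCGCC, the GC-rich box bound by BMP-activated SMADs, in Zglp1, Id2 and Gata2. In Chst15 they mark AATNCACA, the core of FOXH1, a partner of the SMADs of Nodal signalling.
Stra8, chr6:34920698-34920997, plus strand: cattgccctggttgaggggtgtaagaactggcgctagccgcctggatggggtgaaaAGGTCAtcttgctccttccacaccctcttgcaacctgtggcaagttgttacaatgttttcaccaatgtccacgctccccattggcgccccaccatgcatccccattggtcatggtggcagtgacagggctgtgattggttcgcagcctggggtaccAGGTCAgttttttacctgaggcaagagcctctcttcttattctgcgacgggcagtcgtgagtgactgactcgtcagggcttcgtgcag
Zglp1, chr9:21067044-21067343, minus strand: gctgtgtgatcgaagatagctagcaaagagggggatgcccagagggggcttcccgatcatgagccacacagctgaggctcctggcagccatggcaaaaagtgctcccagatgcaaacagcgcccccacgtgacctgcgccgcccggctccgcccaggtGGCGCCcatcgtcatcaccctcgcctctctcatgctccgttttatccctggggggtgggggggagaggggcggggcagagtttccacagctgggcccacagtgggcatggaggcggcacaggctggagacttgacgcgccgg
Id2, chr12:25096043-25096342, minus strand: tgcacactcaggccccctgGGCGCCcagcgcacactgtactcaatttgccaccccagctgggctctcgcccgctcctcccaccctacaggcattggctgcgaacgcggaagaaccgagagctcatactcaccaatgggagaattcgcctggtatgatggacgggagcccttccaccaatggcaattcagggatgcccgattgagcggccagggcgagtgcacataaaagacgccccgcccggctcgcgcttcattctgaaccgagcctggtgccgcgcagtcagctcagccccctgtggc
Gata2, second start site, chr6:88198414-88198713, plus strand: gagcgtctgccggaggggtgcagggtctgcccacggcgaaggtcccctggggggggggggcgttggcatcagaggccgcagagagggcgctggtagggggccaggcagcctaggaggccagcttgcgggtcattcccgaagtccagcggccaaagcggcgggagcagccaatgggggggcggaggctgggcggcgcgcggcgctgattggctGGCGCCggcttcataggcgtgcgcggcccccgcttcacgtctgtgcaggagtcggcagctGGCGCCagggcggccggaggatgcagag
Chst15, chr7:132317179-132317478, minus strand: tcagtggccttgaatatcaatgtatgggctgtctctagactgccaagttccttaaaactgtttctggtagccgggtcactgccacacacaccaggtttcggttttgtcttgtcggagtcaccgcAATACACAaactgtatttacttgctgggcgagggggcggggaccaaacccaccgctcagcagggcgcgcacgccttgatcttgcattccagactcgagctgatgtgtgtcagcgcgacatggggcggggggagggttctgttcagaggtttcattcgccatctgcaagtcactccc
The Stra8 window holds AGGTCA at 2 places, and the Gata2 window GGCGCC at 2 places. Zglp1 and Id2 hold GGCGCC once, as does the Stra8 window, where it is in lower case. Chst15 holds AATNCACA once. The window of Phlda2, an imprinted gene lower in males (below), was looked at too and holds GGCGCC once, but is not shown. The other windows that were looked at singly held no match, as follows. No window was available for Id1, Lefty1 and Lefty2, and those of Id4 and Gata3 were not looked at singly. GGCGCC was not in those of the BMP targets Id3, Msx1 and Msx2 or at the first Gata2 start site. AATNCACA was not in those of Nodal, Tdgf1, Otx2 and Hesx1 or at the second Chst15 start site, and CNCCTCAG was not in that of Rec8.

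Such matches are short and common. Searched on both strands in all 17352 windows of the 13834 autosomal genes that have one, GGCGCC stood in 17.9% of windows. It stood in 27.2% of the 279 windows of genes lower in males and in 19.3% of the 114 windows of genes higher in males. For AGGTCA the shares were 14.3% of all windows, 11.1% for genes lower in males and 8.77% for genes higher in males. AATNCACA stood in 2.55% of all windows, in 7 windows of the genes lower in males and in 2 of those higher in males. The GATA motif AGATAA stood in 7.96% of all windows, 5.38% of those lower in males and 11.4% of those higher in males. CNCCTCAG, the motif of STRA8 with its partner MEIOSIN, stood in 8.98%, 6.45% and 8.77% in the same order. The SMAD palindrome GTCTAGAC stood in 0.254% of all windows and in none of either group. Windows of 1 gene can overlap, and a match says nothing about binding in these cells.

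Of the 20 largest called differences higher in males, 4 were of genes of the Nodal and activin list (Lefty2, Lefty1, Tdgf1 and Otx2). Of 23 measured genes of that list 5 were higher in males and 1 was lower (26.1% called, against 2.22% of all autosomal genes). The list's median difference was 0.02. The difference was thus carried by few members. Nodal, the ligand, read 4.52 and 4.65 in the females and 6.11 and 6.28 in the males (log2 difference 1.61, SE 0.281, adjusted p = 0.0154). Tdgf1 (Cripto), the co-receptor that lets Nodal act on activin receptors, read 5.69 and 5.51 in the females and 9.41 and 9.54 in the males (log2 difference 3.88, SE 0.56, adjusted p = 0.0052). Nodal's females lay below the table's median, and a second Nodal probe set, dim in both sexes, differed by -0.21. The Nodal call was lost when all probe sets were averaged and when all 14 arrays were fitted. The receptors and SMADs were not called. Their 7 measured members had a median difference of -0.24, among them Smad2 at -0.24 and Acvr2b at 0.14.

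Of 9 measured targets and feedback inhibitors of Nodal, 3 were higher in males, 1 was lower and 5 were not called, with a median difference of 0.14. Lefty2, a secreted inhibitor and target of Nodal, read 4.79 and 5.06 in the females and 11.67 and 11.24 in the males (log2 difference 6.53, SE 0.716, adjusted p = 0.00106), or 92.4-fold. Lefty1, its close paralogue, read 6.45 and 6.49 in the females and 11.86 and 11.94 in the males (log2 difference 5.43, SE 0.389, adjusted p = 6.53e-05), or 43.1-fold. The paralogues are near-identical neighbours, and how far their probe sets share signal was not tested. Otx2, a homeobox factor of early epiblast and head, read 3.54 and 3.01 in the females and 6.89 and 6.72 in the males (log2 difference 3.53, SE 0.349, adjusted p = 0.000534). Its females were dim, so the size of the difference is less certain than the call. The convertase Pcsk6, which cuts the Nodal precursor, was lower in males (8.54 and 8.64 against 7.09 and 7.53, log2 difference -1.28, adjusted p = 0.0425). Gdf3, a related ligand, differed by 0.02, and Foxh1 by -0.32 (adjusted p = 0.826). Lefty1, Lefty2 and Otx2 kept their calls without any 1 of the 4 arrays. Tdgf1, Nodal and Pcsk6 lost theirs whichever was left out, with adjusted p from 0.0507 to 0.0697 for Tdgf1.

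**Figure D2:**
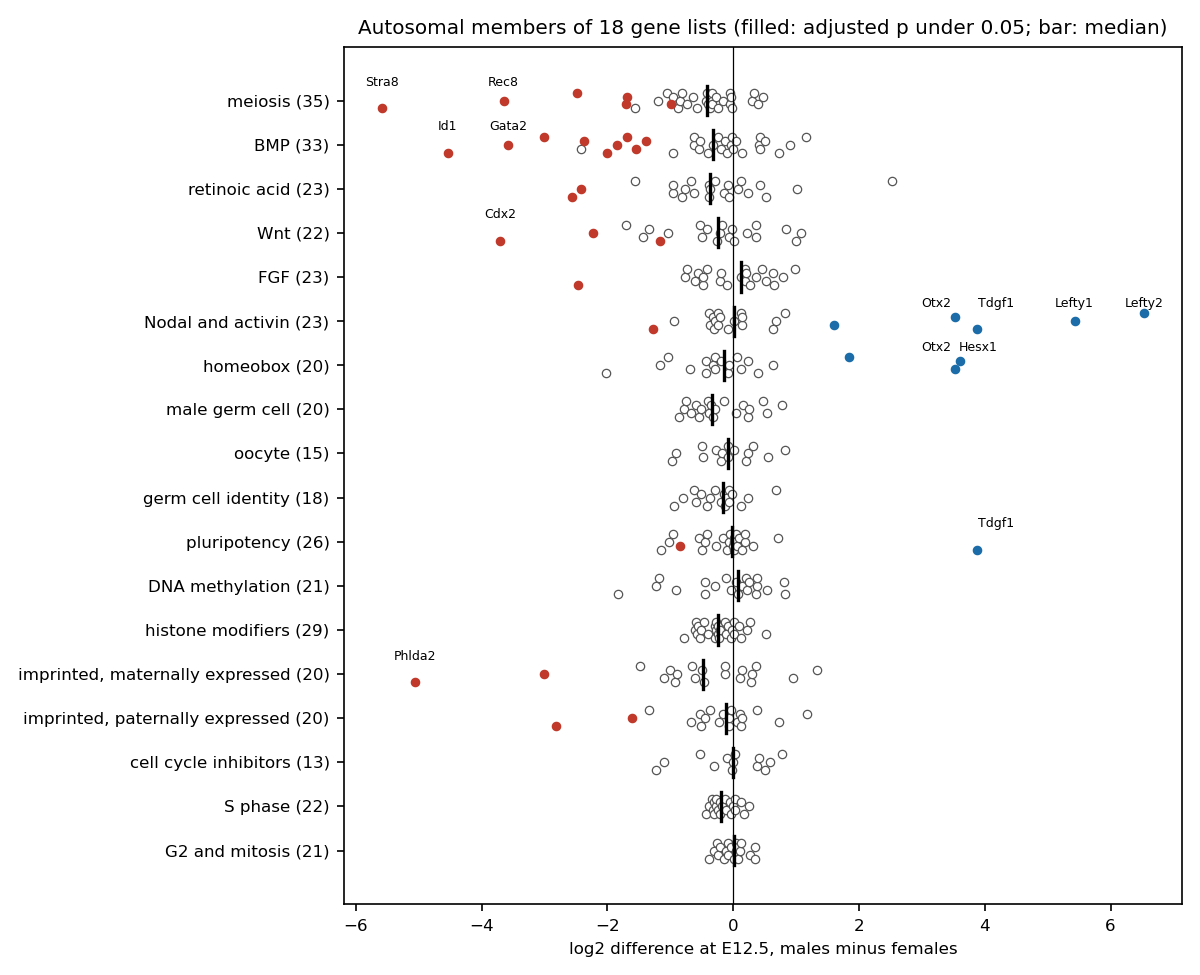
Log2 difference at E12.5, males minus females, of each measured autosomal member of 18 gene lists, with the number of members in parentheses. Filled points passed the test (blue higher and red lower in males), open points did not, and the black bar is the list's median. The called BMP and meiosis genes all lie left of 0, and the called members of the Nodal list lie right of 0 but for 1.

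The homeobox genes Msx1, Msx2 (above) and Cdx2 (below), lower in males, were counted in the BMP and Wnt lists. Of 20 measured members of a list of other homeobox genes 3 were higher in males and none was lower, with a median difference of -0.14. The called share was 15%, against 2.22% of all autosomal genes. Hesx1, a repressor of the forebrain and pituitary, read 5.26 and 5.11 in the females and 8.42 and 9.15 in the males (log2 difference 3.60, SE 0.353, adjusted p = 0.000518). Lhx1, a LIM factor of mesoderm and kidney, read 8.20 and 8.11 against 9.84 and 10.14 (log2 difference 1.84, SE 0.193, adjusted p = 0.000831). Both kept their calls without any 1 of the 4 arrays. The neighbouring antisense gene Lhx1os was higher in males too (5.83 and 5.79 against 8.33 and 8.70, adjusted p = 0.00344), though not without replicate 2 of the females (adjusted p = 0.0531).

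Of the same 20 largest differences, 13 were of genes in no list. Chst15, a sulfotransferase that makes highly sulfated chondroitin sulfate, read 3.62 and 2.84 in the females and 8.51 and 9.10 in the males (log2 difference 5.58, SE 0.349, adjusted p = 3.06e-05). Pmaip1 (Noxa), a pro-apoptotic member of the Bcl2 family, read 6.45 and 6.25 against 10.02 and 10.38 (log2 difference 3.85, SE 0.346, adjusted p = 0.000284). The other 13 measured members of the apoptosis list were not called, and its median difference was -0.10. Mgst2, a microsomal glutathione transferase, read 4.37 and 3.97 against 7.63 and 8.68 (adjusted p = 0.0013). Proc, the precursor of the anticoagulant protein C, read 4.96 and 3.73 against 8.37 and 8.13 (adjusted p = 0.00164). Tmem63a, a mechanically gated channel whose gene lies next to the Lefty genes, read 5.04 and 5.15 against 8.60 and 8.81 (log2 difference 3.61, SE 0.253, adjusted p = 6.44e-05). Lrrc2, next to Tdgf1, read 3.60 and 3.32 against 6.63 and 6.77 (log2 difference 3.24, adjusted p = 0.000152). None of these 6 genes lost its call without any 1 of the 4 arrays. Lrrc2 lost it when all its probe sets were averaged, since a second, dim one differed by 0.26.

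Lower in males outside the lists of meiosis and BMP were genes of varied function. Cubn, the endocytic receptor cubilin, read 8.34 and 8.10 in the females and 3.82 and 3.73 in the males (log2 difference -4.44, SE 0.271, adjusted p = 2.88e-05). Calcoco2, an autophagy receptor, read 11.44 and 11.39 against 6.84 and 7.14 (log2 difference -4.42, SE 0.388, adjusted p = 0.000256). Met, the receptor of hepatocyte growth factor, read 8.69 and 8.61 against 5.00 and 4.93 (log2 difference -3.68, SE 0.289, adjusted p = 0.000138). In each, the replicates of a sex lay close together and the sexes far apart. Pwwp2b, a chromatin reader, read 8.09 and 8.05 against 3.42 and 4.11 (log2 difference -4.30, adjusted p = 0.000185), while its second probe set differed by -0.12. Prom1 (CD133), a membrane glycoprotein of protrusions, read 9.06 and 8.66 against 6.14 and 5.06 (log2 difference -3.26, adjusted p = 0.00185). Nrp2, a receptor for semaphorins, was lower in males (6.33 and 6.58 against 3.83 and 3.70, adjusted p = 0.00327) but not without replicate 2 of the females (adjusted p = 0.0585).

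Among 22 measured genes of the Wnt list 3 were lower in males and none higher (13.6% called, against 2.22% of all autosomal genes), with a median difference of -0.23. Cdx2, a caudal homeobox factor downstream of Wnt, read 6.62 and 6.54 in the females and 2.92 and 2.82 in the males (log2 difference -3.71, SE 0.382, adjusted p = 0.000735), with dim males. Ccnd1, the G1 cyclin D1, read 8.09 and 8.40 against 5.39 and 6.65 (adjusted p = 0.0147). Notum, a secreted Wnt inhibitor, read 9.35 and 9.49 against 8.20 and 8.31 (adjusted p = 0.0147). Ccnd1 lost its call without 3 of the 4 arrays in turn, and Notum without any. Axin2, a general Wnt target, differed by -1.71 (9.24 and 9.90 against 7.28 and 8.45) and did not pass (adjusted p = 0.0853). Lef1 differed by -0.21 (adjusted p = 0.889). In the FGF list 1 of 23 measured genes was called (4.35%, against 2.22% of all autosomal genes). Fgfr3, a receptor, read 9.29 and 9.46 in the females and 6.94 and 6.88 in the males (log2 difference -2.46, SE 0.292, adjusted p = 0.00164). The FGF targets Etv5 (0.19, 95% interval -0.13 to 0.51) and Spry4 (-0.20, 95% interval -0.82 to 0.43) were not called.

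Imprinted genes were lower in males where called. The lists go by the allele that imprinting is known to keep active, and the arrays do not tell alleles apart. Of 20 measured genes listed as maternally expressed 2 were lower in males (10%), with a median difference of -0.48. Of 20 genes listed as paternally expressed 2 were lower (10%), with a median of -0.12, and over all autosomal genes 2.22% were called. Neither list had a member higher in males. Phlda2, a growth-restraining gene of the placenta, read 13.08 and 13.12 in the females and 8.10 and 7.97 in the males (log2 difference -5.07, SE 0.269, adjusted p = 2.88e-05), or 33.5-fold. Slc22a18, its neighbour in the same imprinted cluster, read 8.16 and 8.34 against 5.30 and 5.19 (log2 difference -3.00, SE 0.214, adjusted p = 6.53e-05). The sexes were far apart in both, and both calls held without any 1 array. Cdkn1c, a cell cycle inhibitor of that cluster, differed by -1.10 (9.66 and 9.97 against 8.57 and 8.87) and did not pass (adjusted p = 0.0654). Plagl1, a paternally expressed zinc finger factor, read 11.40 and 11.53 against 8.41 and 8.87 (log2 difference -2.82, SE 0.244, adjusted p = 0.000256). Slc38a4, an amino acid transporter, differed by -1.61 (adjusted p = 0.00344), though not without replicate 1 of the females (adjusted p = 0.0662).

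Genes of germ cell identity and pluripotency were mostly not called. None of 18 measured identity genes was called by limma, 5 (27.8%, against 12.3% of all autosomal genes) had an unadjusted p under 0.05, and their median difference was -0.17. The factors Prdm1 (-0.20, 95% interval -0.60 to 0.21) and Prdm14 (-0.02, 95% interval -0.40 to 0.36) had intervals within 2-fold in either direction. Tfap2c, another specification factor, differed by -0.81 (11.30 and 11.00 against 10.48 and 10.21, adjusted p = 0.0763). Of 26 pluripotency genes 7.69% were called, against 2.22% of all autosomal genes, and 1 was higher in males, Tdgf1 as above. Another was lower, Dppa2 (10.91 and 10.73 against 9.98 and 9.96, adjusted p = 0.0284), a call lost without any 1 array. Pou5f1 differed by 0.02 (95% interval -0.26 to 0.30), Sox2 by -0.28 (95% interval -0.66 to 0.10) and Nanog by -0.05 (95% interval -1.02 to 0.91).

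Genes of later sex-specific germ cell programmes were not called either. None of 20 measured genes of male germ cells passed (median difference -0.34, 5 or 25% with an unadjusted p under 0.05, against 12.3% of all autosomal genes), among them Dnmt3l, a cofactor of DNA methylation, which was dim in both sexes (2.07 and 2.08 against 1.57 and 2.01). Piwil4, a piRNA effector of prospermatogonia, differed by 0.54 (adjusted p = 0.49). Of 15 oocyte genes none passed (median -0.09, 1 or 6.67% with an unadjusted p under 0.05). Figla, an oocyte transcription factor, differed by -0.91 (6.36 and 6.55 against 5.53 and 5.56, adjusted p = 0.114). In the list of DNA methylation and demethylation none of 21 genes was called. An unadjusted p under 0.05 was found for 4 (19%), against 12.3% of all autosomal genes. Dnmt1, the maintenance methyltransferase, differed by -0.12, and Tet1 by 0.37. None of 29 histone modifiers, 22 S phase genes, 21 genes of G2 and mitosis and 13 cell cycle inhibitors was called. An unadjusted p under 0.05 was found for 4 (13.8%), 2 (9.09%), 0 and 4 (30.8%) of them, in that order. A p-value above the threshold does not show that these levels are alike, and 2 arrays per sex limit what can be seen.

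Metabolic lists added 2 calls, 1 of 16 glycolysis genes (6.25%) and 1 of 14 genes of cholesterol synthesis (7.14%), against 2.22% of all autosomal genes. An unadjusted limma p under 0.05 was found for 2 (12.5%) and 6 (42.9%) of them, in that order, against 12.3% of all autosomal genes. Their median differences were 0.18 and -0.44, and 2 of the 14 cholesterol genes had a difference above 0. Ldha, which makes lactate, differed by -1.31 and Srebf2, the master factor of cholesterol synthesis, by -0.71, both lower in males. Both passed narrowly (adjusted p = 0.0452 and 0.0467), and both lost the call without any 1 array. None of 17 genes of oxidative phosphorylation was called, nor had any an unadjusted p under 0.05, with differences from -0.27 to 0.16. Among the lists not yet named, 1 of 8 cyclins D and kinases (Ccnd1, above) and 1 of 19 adhesion and guidance genes (Nrp2, above) were lower in males. These are 12.5% and 5.26% of their lists, against 2.22% of all autosomal genes. None of 11 TGF beta genes was called, and 1 (9.09%) had an unadjusted p under 0.05, against 12.3% of all autosomal genes.

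Markers of other gonadal cells were examined for the whole of each list. Of 17 general somatic markers none was called, and 7 were dim in both sexes. An unadjusted p under 0.05 was found for 2 (11.8%), against 12.3% of all autosomal genes. The summed signal of the 17 markers, on the log2 scale, was 11.18 to 11.35 in the females and 10.68 to 10.87 in the males. Most of it came from Cbx2, a Polycomb gene that germ cells also express. The defining genes Nr5a1 (4.05 to 4.40), Wt1 (4.32 to 5.31) and Gata4 (4.79 to 5.53) lay near the median of the table in all 4 arrays. Of 12 markers of male supporting cells 2 were higher in males (16.7%, against 2.22% called over all autosomal genes) and 10 were not called. Their summed signals were 11.37 to 11.44 in females and 10.98 to 11.28 in males, mostly from Dmrt1, which germ cells also express. Cst9, a cystatin of fetal Sertoli cells, read 3.24 and 2.01 in the females and 7.20 and 7.84 in the males (log2 difference 4.89, SE 0.74, adjusted p = 0.00679). Ptgds, the prostaglandin D synthase of those cells, read 4.22 and 4.66 against 5.95 and 6.75 (adjusted p = 0.0405). The defining Sertoli gene Sox9 was dim in every array (2.85 and 3.47 in females, 3.40 and 3.59 in males), and Amh differed by -0.10 (95% interval -0.66 to 0.45). What part such cells have in the difference of Cst9 and Ptgds was not tested. Cst9 lost its call without replicate 2 of either sex, and Ptgds without any 1 array.

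Of 10 markers of female supporting cells none was called, and 1 (10%) had an unadjusted p under 0.05, against 12.3% of all autosomal genes. It was not Foxl2 (5.44 and 6.02 in females, 5.55 and 5.64 in males). The summed signals of the 10 markers were 10.29 to 10.42 in females and 10.04 to 10.05 in males. None of 5 steroidogenic, 11 endothelial and 8 blood markers was called, and 1 endothelial marker (9.09%) had an unadjusted p under 0.05. Their summed signals ran from 8.25 to 8.32, 10.88 to 10.88 and 7.51 to 8.37 in females, and from 8.10 to 8.12, 10.74 to 10.81 and 7.32 to 8.21 in males, in that order. Of 7 markers of mesonephros and epithelium 2 were higher in males (Lhx1, also in the homeobox list, and Upk3b, dim in both sexes) and Krt18 was lower. The called share was 42.9%, against 2.22% of all autosomal genes. That list summed to 10.41 to 10.42 in females and 10.45 to 10.67 in males. No marker of these lists was at 0 in all 4 arrays. Of 14 immediate early and heat shock genes, which respond to tissue digestion, none was called and 4 had an unadjusted p under 0.05 (28.6%, against 12.3% of all autosomal genes). Their differences ran from -1.50 to 1.23, with a sum of 14.27 to 14.43 in females and 14.28 to 14.30 in males.

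**Figure D3:**
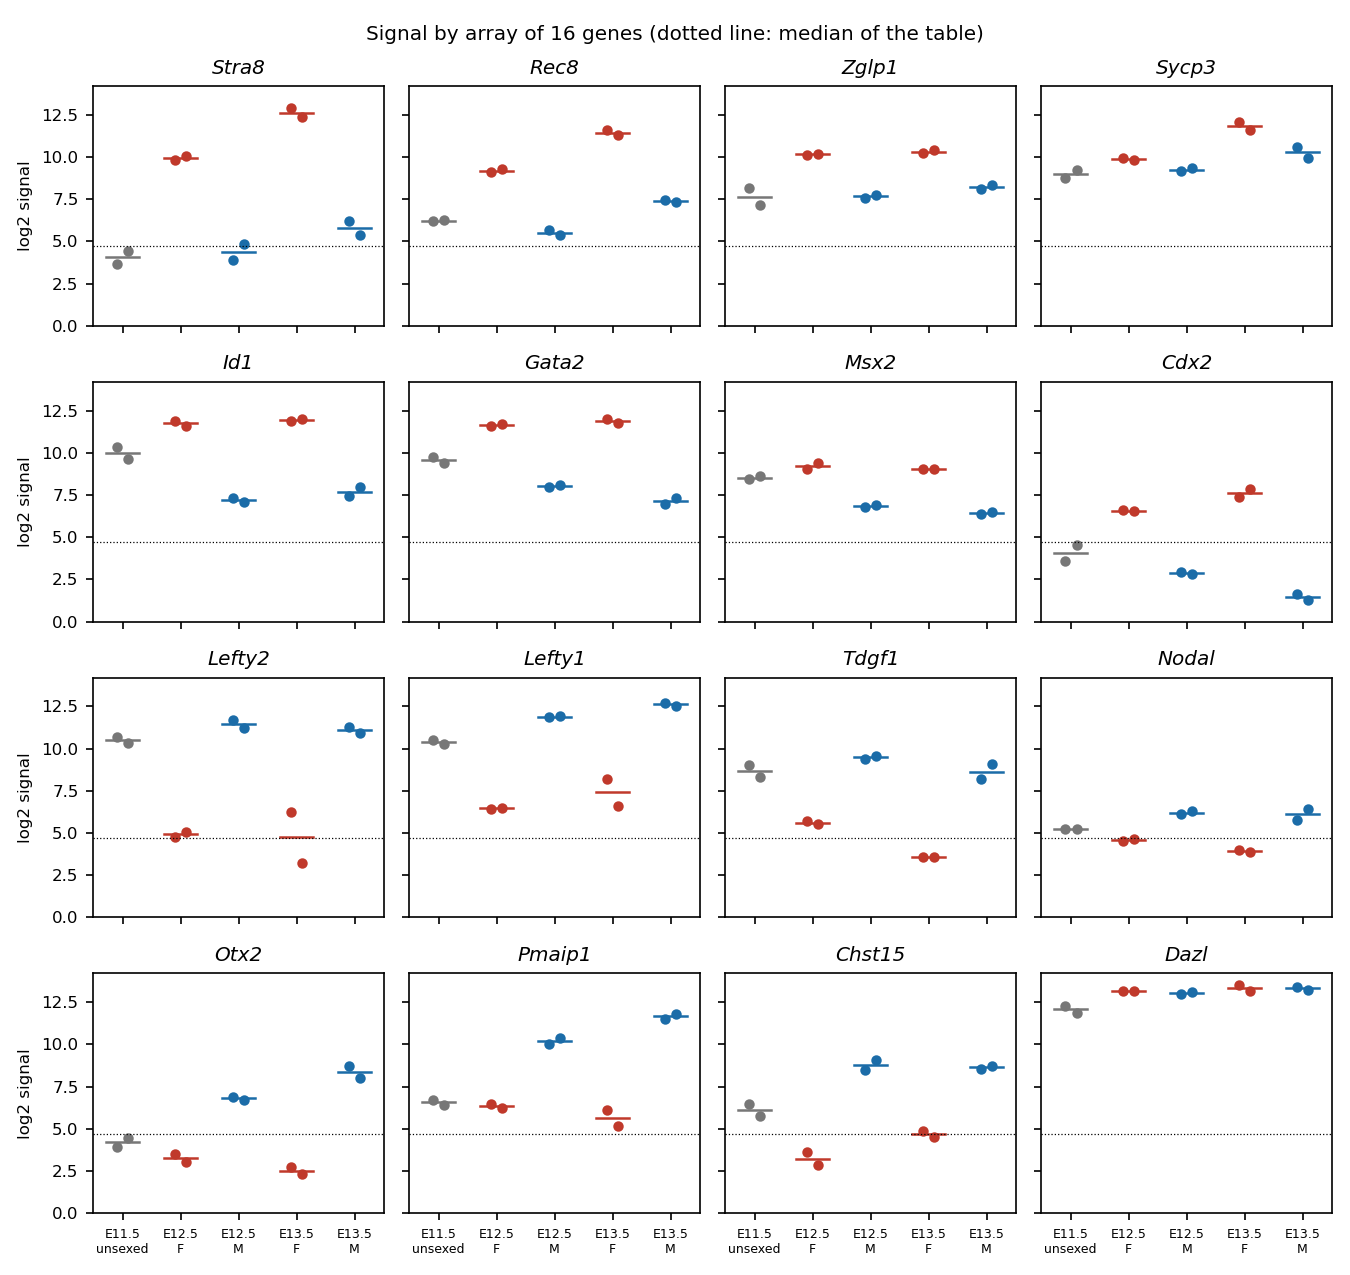
Log2 signal of 16 genes on each array at E11.5 (grey, sex not given), E12.5 and E13.5 (red female, blue male), with lines at the group means and a dotted line at the table's median of 4.72. The sexes lie far apart at E12.5 and E13.5 for all but Nodal, Sycp3 and Dazl. Nodal and Sycp3 have smaller E12.5 differences, of 1.61 and -0.635. Dazl reads between 13.00 and 13.17 in both sexes at E12.5.

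Most of these differences were seen again at E13.5, in 4 arrays that the E12.5 comparison did not use, although the fit estimates one spread for both ages. Of the 387 genes 378 had the same sign at E13.5, and 314 (81.1%) were called there in the same direction. Over all autosomal genes 1722 were called at E13.5 (9.89%, with 4.26% higher and 5.63% lower in males), so those 314 were 18.2% of them. Of the 117 genes higher in males at E12.5, 98 were called again, and of the 270 lower in males, 216. None was called in the opposite direction. Replicate 1 of the E13.5 females had more Y-linked signal than the other female arrays, with Eif2s3y at 5.93 against 2.58 in replicate 2. The same array read higher for Lefty2, at 6.26 against 3.23, and for Lefty1, at 8.22 against 6.61. Without it 268 of the genes were called again, and 296 autosomal genes were called at E12.5. Replicate 2 of both sexes at E13.5 had 3′ to 5′ Gapdh differences of 3.09 and 3.16, and without both the counts were 180 and 160.

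The leading genes of E12.5 differed at E13.5 too, some by more and some by less. Stra8 read 12.89 and 12.35 in E13.5 females and 6.20 and 5.39 in males (log2 difference -6.83, adjusted p = 0.00017). Pmaip1 read 6.13 and 5.19 against 11.52 and 11.83 (log2 difference 6.01, adjusted p = 8.78e-06). Otx2 read 2.72 and 2.35 against 8.73 and 8.01 (log2 difference 5.83, adjusted p = 1.16e-05). Lefty2 differed by 6.36 (adjusted p = 0.000375), Chst15 by 3.97 (adjusted p = 8.32e-05) and Proc by 2.72 (adjusted p = 0.0041). Meioc, Smc1b, Sycp3 and Figla, not called at E12.5, were called at E13.5, with log2 differences of -4.22, -1.58, -1.55 and -2.40. Some E12.5 calls were not repeated. Id4 differed by -0.80 (10.04 and 9.73 against 8.94 and 9.24, adjusted p = 0.243), Hormad2 by -0.61 (adjusted p = 0.122) and Dppa2 by -0.13 (adjusted p = 0.746). Shc4, an adaptor of receptor tyrosine kinases that was picked here after its values were seen, differed by 2.40 at E12.5 and by 0.81 at E13.5 (adjusted p = 0.09). The limma test of the difference between the ages called none of the 387 genes, of which 131 had an unadjusted p under 0.05. Over all autosomal genes it called 1 (0.00575%), and 1272 (7.31%) had an unadjusted p under 0.05. The E12.5 arrays that chose the 387 genes enter this test, so nothing is read from their share.

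**Figure D4:**
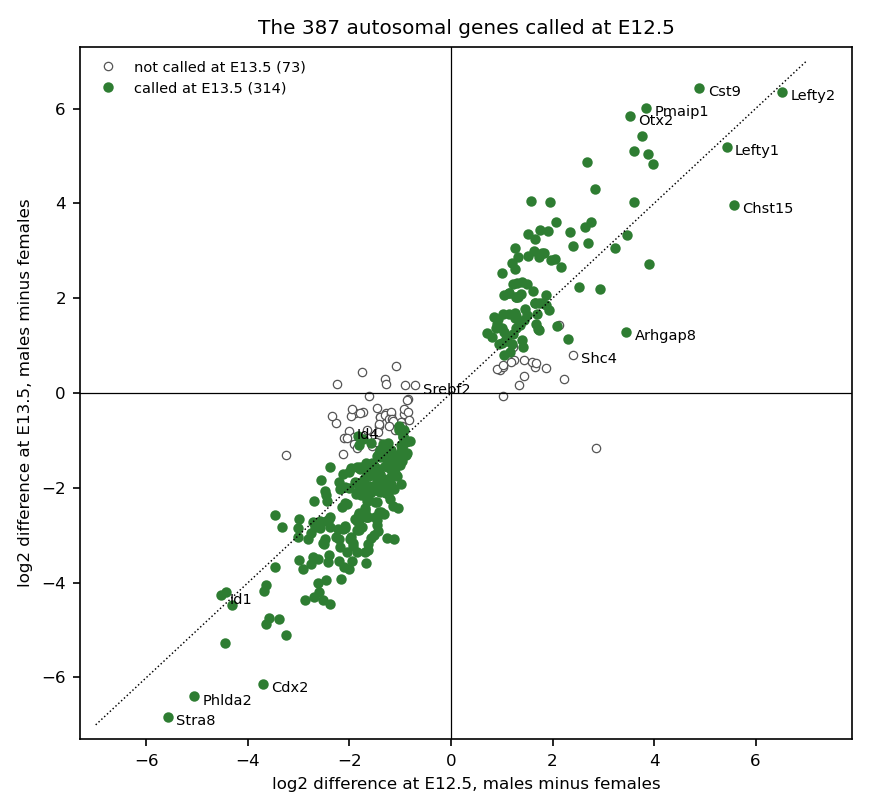
Log2 difference of males minus females at E12.5 (horizontal) and at E13.5 (vertical) for the 387 autosomal genes called at E12.5. Filled points (314) were called at E13.5 as well, open points (73) were not, and the dotted line marks equal differences. All but 9 genes have the same sign at both ages.

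Set beside E11.5, the sexes differed in different ways from gene to gene. The E11.5 arrays bear no sex label and had Eif2s3y at 9.95 and 10.20, so XY cells were among them. Both comparisons with E11.5 share those arrays and use the E12.5 arrays again, so values are given side by side only. Stra8 read 3.67 and 4.45 at E11.5, and the E12.5 females differed from that by 5.89 (adjusted p = 0.00254) and the males by 0.31 (adjusted p = 0.932). Rec8 read 6.21 and 6.26, with differences of 2.94 in females (adjusted p = 0.000895) and -0.71 in males (adjusted p = 0.217). For these meiosis genes it was the females that departed from E11.5. Lefty1 read 10.53 and 10.30 at E11.5, and the females differed by -3.94 (adjusted p = 0.00138) and the males by 1.49 (adjusted p = 0.136). Lefty2 read 10.70 and 10.35, with differences of -5.60 in females (adjusted p = 0.00475) and 0.93 in males (adjusted p = 0.769). Tdgf1 read 9.04 and 8.29, with -3.06 in females (adjusted p = 0.025) and 0.81 in males (adjusted p = 0.732). The Nodal feedback genes and the co-receptor were thus bright already at E11.5 and low in E12.5 females.

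Other genes departed in males, or in both sexes. Pmaip1 read 6.72 and 6.41 at E11.5, and the males differed by 3.63 (adjusted p = 0.00238) and the females by -0.21 (adjusted p = 0.868). Hesx1 read 5.10 and 5.37, with 3.55 in males (adjusted p = 0.00241) and -0.05 in females (adjusted p = 0.979). Otx2, at 3.95 and 4.47, differed by 2.60 in males (adjusted p = 0.00886) and -0.94 in females (adjusted p = 0.257). Among the BMP targets, Id1 and Gata2 departed in both sexes, in opposite directions. Id1 read 10.37 and 9.62 there, with 1.75 in females (adjusted p = 0.025) and -2.79 in males (adjusted p = 0.00544). Gata2 read 9.73 and 9.37, with 2.08 in females (adjusted p = 0.00138) and -1.50 in males (adjusted p = 0.01). Msx2 and Id3 differed by -1.675 (adjusted p = 0.00618) and -1.095 (adjusted p = 0.0174) in males. In females they differed by 0.705 (adjusted p = 0.136) and 0.445 (adjusted p = 0.279). Id2 differed by 1.83 in females (adjusted p = 0.0825) and -1.175 in males (adjusted p = 0.425). The males were not called below E11.5 for Msx1, Id4 and Gata3. Msx1, at 6.98 and 6.93, differed by 1.95 in females (adjusted p = 0.00285) and 0.26 in males (adjusted p = 0.811). The males differed from E11.5 by -0.20 for Id4 (adjusted p = 0.918) and -0.37 for Gata3 (adjusted p = 0.854). Phlda2, at 11.75 and 11.54, differed by 1.46 in females (adjusted p = 0.0256) and -3.61 in males (adjusted p = 0.00106). Chst15, at 6.46 and 5.78, differed by -2.89 in females (adjusted p = 0.00332) and 2.69 in males (adjusted p = 0.0079). The number of autosomal genes called against E11.5 was 303 for females (1.74%, with 1.33% above and 0.414% below E11.5) and 172 for males (0.988%, with 0.339% above and 0.649% below). It fell to 18 for females without replicate 2 of the females and to 2 for males without replicate 2 of the males.

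The called genes were spread over the autosomes, with neighbouring genes among them. In 12 places 2 adjacent measured genes were both called, and in all 12 the direction was the same, over 23 genes or 5.94% of those called. Over all autosomal genes 2.22% were called, and 30.2% of the called genes were higher in males. How many such pairs a random placing of the calls would give was not tested. Higher in males together were Lefty2, Lefty1 and Tmem63a on chromosome 1, Tdgf1 and Lrrc2 on chromosome 9, and Lhx1 and Lhx1os on chromosome 11. Lower in males together were Slc22a18 and Phlda2 on chromosome 7 and Sema4f and M1ap on chromosome 6. Overlapping or antisense transcripts such as Lhx1os may share signal with their partner. Of the 66 named genes that were called, 30 have several probe sets, and 19 of their 21 further probe sets that were not dim gave the same sign, but only 11 of the 21 lay within 1 log2 unit of the probe set used. Rhbdl3, a rhomboid family protein, differed by -3.40 on the one used and by -0.54 on the other, beside Pwwp2b and Dmc1 above. These 66 include the largest differences in each direction, so what holds for them need not hold for all 387 called genes. Among all 66, 35 kept their call without any 1 of the 4 arrays.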

How the data were processed

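Signals came from Affymetrix mouse expression arrays, which hold 45101 probe sets. The deposited series table holds the authors' log2 values (0 to 14.04). How they were corrected for background, summarized and scaled is not given in the sources used here. For an array, the depth of a value is its signal over background, and the number of arrays (2 per group) limits the precision.

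A gene was represented by its brightest probe set, by mean over 12 arrays, among the 34958 probe sets with 1 symbol. Another 932 with several symbols and 9211 with none were left out. Chromosomes came from RefSeq (GRCm38.p6), and X- and Y-linked genes were left out of the report. Groups followed the titles. With limma 3.58.1 in R 4.3.3, 1 mean per group was fitted to 12 arrays, those of E10.5, E11.5, E12.5 and E13.5 (6 residual degrees of freedom, intensity trend, two-sided). P-values were adjusted by Benjamini-Hochberg over 18194 genes. The 2 arrays of E9.5 were left out for their 22 PCR cycles. Promoter windows came from RefSeq. The script was tested on simulated data.

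The members and gene lists were chosen with earlier results of these data known. Named genes were the 20 largest called differences in each direction (at least 2-fold, higher group above the table's median), at most 8 called members of each list, and preset core members. Alternatives tried were other normalizations, filters, floors, probe set rules, variance models, sample sets, a replicate block, a Gapdh covariate and left-out arrays. Deviations of samples with the same replicate number correlated at 0.0933 between E12.5 females and males and 0.194 between the sexes at E13.5, and at -0.189 to 0.275 over all pairs of groups. Since this did not hold for every pair, the numbers were not taken to pair samples. Of 645 list entries, 51 were not measured.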

Additional observations from a re-analysis of the deposited data

Results flagged for a closer look

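The sex difference of Tgfbr3, which encodes betaglycan, a co-receptor for TGF beta and inhibin, differed between E12.5 and E13.5 by 3.18 on the log2 scale (SE 0.357, limma interaction test, adjusted p = 0.0289). At E12.5 it read 5.30 and 5.06 in the females and 4.55 and 4.93 in the males, and at E13.5 4.67 and 5.01 in the females and 7.60 and 7.56 in the males. It was not called at E12.5 (log2 difference -0.44, adjusted p = 0.558) and was called at E13.5 (2.74, adjusted p = 0.000122). The E13.5 males stand apart from the other 6 values, and no gene was called for this interaction when any 1 of the E12.5 or E13.5 arrays was left out (limma, 941 to 1232 genes with an unadjusted p under 0.05).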

How the results depend on the processing

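With 2 arrays per sex, the number of calls was the least stable quantity, whereas no named gene changed sign with a call. The E12.5 count of 387 became 249 without the intensity trend, 1194 with array weights, 679 from the 4 E12.5 arrays alone, 160 without both E13.5 arrays of replicate 2 (chosen after seeing the data) and 81 to 296 with 1 array left out. It was 342 with the replicate number as a block, and 281 to 377 in the other settings. The 314 genes called again at E13.5 became 180 without both E13.5 arrays of replicate 2 and 265 to 273 with 1 array left out. The replicate block gave 317. The interaction count of 1 became 0 with genes above the median gene, the mean of all probe sets, no trend, the replicate block, the Gapdh covariate, without both E13.5 arrays of replicate 2 (631 to 1340 genes with an unadjusted limma p under 0.05 in these settings) and in every left-out fit (0 to 0), where 941 to 1232 had one. It became 21 with array weights and 46 with values floored at the 25th percentile. The 42 called list genes became 87 with array weights, 67 from the 4 arrays alone and 19 to 35 with 1 array left out, and 36 with the replicate block. For females against E11.5 the 303 calls became 197 with the mean of all probe sets, 111 without the trend, 677 with array weights, 140 with the Gapdh covariate, 79 without both arrays and 18 to 153 with 1 left out (281 with the block). For males the 172 became 103, 76, 45 with the covariate, 29 without both arrays and 2 to 97 (141 with the block). The share higher in males, 30.2%, was 40.9% after quantile normalization. The causes were not tested. Of the 66 called named genes, 31 kept their call in every setting and 16 lost it without each of the 4 arrays in turn. The named genes include the largest differences, so the shares kept among them do not stand for all 387 called genes. Signal near the table's median limits the genes that are dim in one sex.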

Other observations

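Outside the lists, several called genes shared a known function. They were picked after their values were seen, and no test was made of them as groups. Genes of cilia were among those higher in males. Dnaic1, an intermediate chain of the axonemal dynein arm, read 6.14 and 6.61 in the females and 7.47 and 8.45 in the males (log2 difference 1.58, adjusted p = 0.0365) and differed by 4.04 at E13.5. Enkur, a protein of the sperm tail and motile cilia, read 5.39 and 5.74 against 7.13 and 6.57 (adjusted p = 0.0283). Bbs1, a subunit of the BBSome that moves cargo in cilia, read 4.57 and 4.12 against 5.57 and 5.69 (adjusted p = 0.0344). Ttc26, Tmem216 and Dpcd, also genes of cilia, differed by 1.02, 1.05 and 1.69. All were called at E13.5 as well. Not every called gene of cilia was higher in males, since Dnah8, a heavy chain of axonemal dynein, differed by -2.27 at E12.5.

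Partners of one receptor were both lower in males. Besides Cubn, Amn, which anchors cubilin in the membrane, read 7.97 and 8.41 in the females and 6.31 and 6.13 in the males (log2 difference -1.97, adjusted p = 0.0408). Lipid genes lower in males were Scd1, a fatty acid desaturase (9.29 and 9.06 against 6.45 and 6.40, adjusted p = 0.00155), and Lpl, lipoprotein lipase (log2 difference -2.13, adjusted p = 0.00722). Besides the semaphorin receptor Nrp2, Sema4g and Sema4f were the called semaphorin genes. Sema4g read 9.16 and 9.07 against 6.63 and 6.23 (adjusted p = 0.000114), and Sema4f 6.75 and 6.86 against 4.59 and 5.52 (adjusted p = 0.0225).

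Called genes outside the lists also included 3 with a known part in meiosis, again picked after their values were seen. M1ap, needed for male meiosis in the adult, read 8.80 and 8.77 against 7.34 and 6.95 (log2 difference -1.64, adjusted p = 0.00961). Brdt, a bromodomain protein of the testis, differed by -1.28 at E12.5 (adjusted p = 0.0312) and by -0.42 at E13.5 (adjusted p = 0.403). Ccnb1ip1 (Hei10), a crossover factor, differed by -1.28 (adjusted p = 0.037).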
